A study of Mus musculus with 12 samples.

Results

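Replication-dependent histone genes were measured as a family of 65 protein-coding genes among 48795 genes in 12 libraries of the mouse fibroblast line NIH3T3. The members are all protein-coding genes whose symbol in the GRCm38-era annotation starts with Hist1h, Hist2h, Hist3h or Hist4h. The annotation holds 67 such genes, and Hist1h2bm and Hist1h2bh are not analysed here. NIH3T3 is an immortalised line from mouse embryos. The libraries came from F5, G5 and H7, clones of that line in which Aebp1 was knocked out, and from the parental line, which is wild type for Aebp1. Aebp1 encodes a secreted, collagen-binding protein. F5, G5 and H7 were sampled at passages 7, 8 and 9 and the parental line at passages 6, 7 and 8, with 3 libraries in each line and no treatment in any. The culture medium was DMEM/F12 with 10% FBS in every line. Each clone descends from a single cell and the parental line is uncloned, so cloning and the knockout cannot be told apart. Whether the 3 passages of a line were separate cultures is not stated, and a p-value here reflects only how far these libraries spread, which may be technical.

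Replication-dependent histone genes supply the H1, H2A, H2B, H3 and H4 proteins that package newly copied DNA. Their transcription and the life of their messages are tied to S phase, the phase in which DNA is copied, so their messages are abundant in dividing cells and scarce in resting ones. Most of these messages have no poly(A) tail. They end instead a few bases after a stem-loop that is bound by SLBP, the stem-loop binding protein, and cut with the help of the U7 ribonucleoprotein. Ribosome-depleted total RNA was sequenced here, which keeps messages without a tail.

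The 16-base stem-loop is the sequence that sets this family apart, and it was searched for in the GENCODE transcripts of all protein-coding genes. It was found in 44 of the 65 members, in 8 different versions, and the commonest version stood in 24 of them. Within the last 100 bases of a transcript it stood in 33.8% of the members and in 2 of 21884 other protein-coding genes. A missing match says only that these letters are not in the annotated transcript. The sequences below are shown because these members carry the results that follow, with the stem-loop in capitals and 5 bases on each side, written as DNA in the sense of the message.
Hist1h2bg, chr13:23571838-23571863 plus strand: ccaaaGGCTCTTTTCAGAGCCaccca
Hist3h2a, chr11:58955167-58955192 plus strand: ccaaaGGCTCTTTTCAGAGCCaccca
Hist1h1c, chr13:23739507-23739532 plus strand: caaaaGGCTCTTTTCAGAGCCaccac
Hist1h3g, chr13:23535884-23535909 plus strand: ttaaaGGCTCTTCTTAGAGCCaccca
Hist1h4d, chr13:23581945-23581970 plus strand: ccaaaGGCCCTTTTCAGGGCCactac
Hist4h4, chr6:136803993-136804018 minus strand: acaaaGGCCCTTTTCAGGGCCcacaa
The H2A, H2B and H1 genes in this set share the version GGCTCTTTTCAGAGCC, and the H4 genes carry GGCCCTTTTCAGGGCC. Hist1h3g carries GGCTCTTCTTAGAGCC, which was found in 1 member.

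Upstream sequences were taken from RefSeq on the build GRCm38, where 60 of the 65 members had an entry, and the 250 bases before each start were searched on both strands for 3 motifs. The CCAAT motif, bound by the NF-Y complex, stood before 81.7% of the 60 members and before 33.8% of all 32851 entries. The motif TATAAA stood before 48.3% of the members and 12.4% of all entries, and the octamer ATTTGCAT, bound by OCT1, before 21.7% and 1.60%. By class, the octamer stood before 38.9% of the H2A genes and 42.9% of the H2B genes and before 0 of the H1, H3 and H4 genes. CCAAT stood before every H1, H2A and H2B gene with an entry, 80.0% of the H3 genes and 25.0% of the H4 genes. The 130 bases before the start of an H2A, an H2B and an H4 gene are shown because they differ in these motifs, which are in capitals on either strand.
Hist3h2a, chr11:58954555-58954684 plus strand: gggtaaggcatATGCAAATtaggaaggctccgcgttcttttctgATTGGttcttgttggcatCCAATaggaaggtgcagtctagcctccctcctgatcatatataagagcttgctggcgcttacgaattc
Hist1h2bg, chr13:23571270-23571399 plus strand: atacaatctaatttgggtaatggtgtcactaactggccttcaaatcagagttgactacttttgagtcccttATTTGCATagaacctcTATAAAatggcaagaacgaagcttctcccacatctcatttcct
Hist1h4d, chr13:23581438-23581567 plus strand: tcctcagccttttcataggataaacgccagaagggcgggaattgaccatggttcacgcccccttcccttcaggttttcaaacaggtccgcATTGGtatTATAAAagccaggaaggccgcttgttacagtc
The CCAAT motifs of Hist1h2bg lie farther upstream than the bases shown. A match describes the letters and does not show that a factor binds there.

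The members lie in 4 clusters, with 52 in Hist1 on chromosome 13, 10 in Hist2 on chromosome 3, 2 in Hist3 on chromosome 11 and 1 in Hist4 on chromosome 6. By class they are 6 H1, 18 H2A, 16 H2B, 12 H3 and 13 H4 genes. Many are near copies of each other. In 32 of the 65 members over 50% of all 50-base stretches of the transcript also occur in another gene, and 4 members share none. Some annotated transcripts run far past the stem-loop, near which the message ends, and their shares can then understate the overlap of the message itself. Shares and lengths given here are those of GENCODE transcripts, which can differ from the transcripts behind the deposited values. A further limit comes from overlap, since 7 members overlap another gene on the same strand and 21 overlap one on the opposite strand, and without a statement that strand was used in counting such neighbours cannot be told apart. Reads of copies can have been divided between them in the counting, and 85.9% of the deposited member values above 0.5 were not within 0.01 of a whole number, against 12.9% for other genes. Levels and changes of single members with close copies are therefore uncertain.

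Library totals lay between 22088695 and 31329735 counts, and the members took 0.526% to 0.855% of them. Aebp1 was measured at 214, 175 and 190 CPM (counts per 1000000 counts, TMM-scaled) in F5, 138, 124 and 123 in G5, 158, 131 and 153 in H7, and 613, 467 and 579 in the parental line. Its levels in the clones did not overlap those in the parental line, and its RNA was present in every clone. For the mean of the clones the log2 fold change was -1.84 (SE 0.09, edgeR adjusted p = 1.69e-06). Fibroblast markers were all measured, from 22.6 TPM (transcripts per 1000000) for Lum to 2424 TPM for Fn1. Epcam and Cldn3 of epithelial cells, Adgre1 and Cd3e of immune cells and Kdr of endothelial cells were listed at 0 TPM in every library. Other markers of these lists were detected at low levels, with Cd68 at 4.39 to 7.41 TPM, Krt14 at 0.65 to 1.70 TPM and Pecam1 at 0.0276 to 0.648 TPM in the 12 libraries. Cdh1 stood at 0.364, 0.210 and 0.349 TPM in H7 and at 0.101 TPM or less in every other library, and was higher in H7 than in the parental line (log2 fold change 5.28, SE 0.88, edgeR adjusted p = 0.00183). The part of these markers in the histone levels was not tested. The library of the second sampled passage of each line stood apart for the members, the parental one most, and results between lines are given with and without these libraries.

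H3 genes held 30.2% of the summed TPM of the family, H4 genes 25.6%, H2A genes 21.9%, H2B genes 14.2% and H1 genes 8.06%. TPM is a level per transcript length, so the order of members by TPM depends on the length assigned to each transcript. The median member stood at 260 TPM, 48 members exceeded 100 TPM and 9 lay below 10 TPM. The 10 highest members together held 42.6% of the sum.

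**Figure D1:**
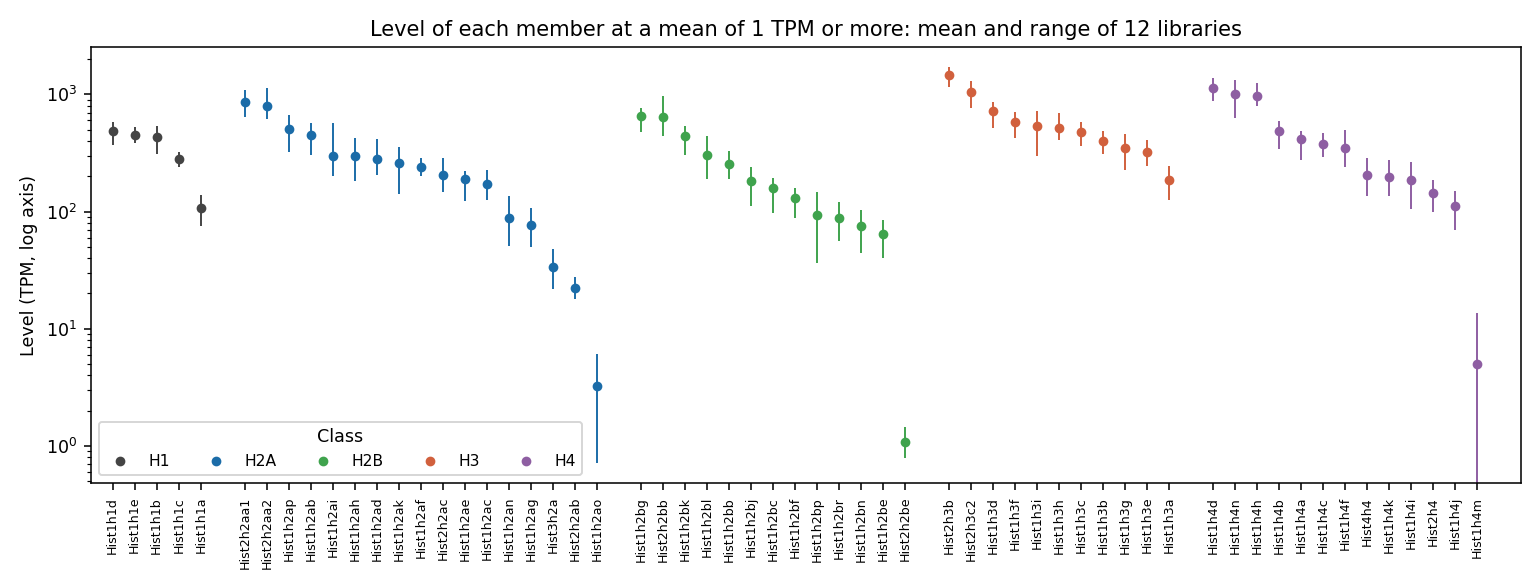
Mean level of each member with a mean of at least 1 TPM over the 12 libraries (TPM, log axis), by histone class, with lines from the lowest to the highest library. Hist2h3b was the highest at 1458 TPM, and most members stood above 100 TPM. The line of Hist1h4m runs off the axis because 1 library was listed at 0.

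Hist2h3b, a gene for the core histone H3, was the highest member at 1458 ± 195 TPM (SD, n = 12 libraries) and made up 6.68% of the family's sum. It lies on chr3:96268654-96269141 on the plus strand. It was followed among the H3 genes by Hist2h3c2 at 1046 ± 182 TPM and Hist1h3d at 727 ± 107 TPM. Hist2h3b shares 79.7% of its 50-base stretches with Gm20634, so its level depends on how shared reads were assigned. Its annotated transcript has 488 bases, and that of Hist2h3c2 has 1020, of which 377 lie after the stem-loop. In CPM, which leaves length out, the median outer-passage library stood at 420.1 for Hist2h3b and 637.9 for Hist2h3c2, so their order by TPM depends on length.

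Among the H4 genes, whose product pairs with H3 in the nucleosome core, Hist1h4d stood at 1143 ± 165 TPM, Hist1h4n at 1011 ± 232 TPM and Hist1h4h at 965 ± 148 TPM (SD, n = 12). The highest H2A genes were Hist2h2aa1 at 856 ± 143 TPM, Hist2h2aa2 at 802 ± 151 TPM and Hist1h2ap at 510 ± 108 TPM. Every 50-base stretch of Hist2h2aa2 also occurs in Gm20634. Hist2h2aa1 shares 89.4% of its own with the same gene, which it overlaps. The summed level of these 2 members, which leaves out Gm20634, averaged 505 ± 94.1 CPM in F5, 505 ± 71.6 in G5, 484 ± 29.6 in H7 and 535 ± 133 in the parental line (SD, n = 3 each).

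The highest H2B genes were Hist1h2bg at 660 ± 108 TPM, Hist2h2bb at 641 ± 148 TPM and Hist1h2bk at 443 ± 79.7 TPM. By TPM, the highest genes of the linker histone H1, which binds DNA between nucleosomes, were Hist1h1d at 483 ± 75.0 TPM, Hist1h1e at 454 ± 56.1 TPM and Hist1h1b at 435 ± 77.1 TPM. In CPM the outer median was highest for Hist1h1c, at 257, against 217 for Hist1h1d, 204 for Hist1h1e and 193 for Hist1h1b. Hist1h1d shares 2.25% of its 50-base stretches with other genes, over a GENCODE transcript of 7425 bases, of which 4884 lie after the stem-loop. Its deposited TPM cannot rest on that length. Hist1h1c, with 1560 annotated bases, was higher than Hist1h1d in CPM but lower in TPM, at 282. The 2.25% may therefore not hold for the transcript that was counted.

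Members known as germ-cell forms were at or near 0. Hist1h2aa and Hist1h2ba had 0 counts in all 12 libraries, which allows up to 0.00975 CPM at a limit of 3 counts over all libraries and covers counting error only. Hist1h1t, the testis H1, had 8 counts in all. The remaining members left out of the test by the filter on low counts were Hist2h3c1 with 18 counts in 2 libraries and Hist3h2ba with 50 counts. The filter thus kept 60 of the 65 members among 14704 genes tested.

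Most members differed between sampled passages. In the second sampled passage of every line, which is passage 8 in the clones and passage 7 in the parental line, histone levels were lower than in the passages before and after it. The summed level of all members was 5577 CPM in the second passage of F5, against 7848 and 7821 CPM in its first and in the third. It was 5502 CPM in G5, against 7617 and 7357 CPM. In both clones the outer passages were close to each other and the second lay well under them. The second passage of H7 stood at 6262 CPM, against 6862 and 7086 CPM. In the parental line it was 5186 CPM, against 8354 and 8612 CPM. The second passage thus held 71.2% of the mean of the outer passages in F5, 73.5% in G5, 89.8% in H7 and 61.1% in the parental line. In TPM the shares were 72.0%, 71.5%, 90.1% and 62.8% in the same lines. In bulk RNA, fewer cells in S phase and less histone RNA per cell cannot be told apart.

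**Figure D2:**
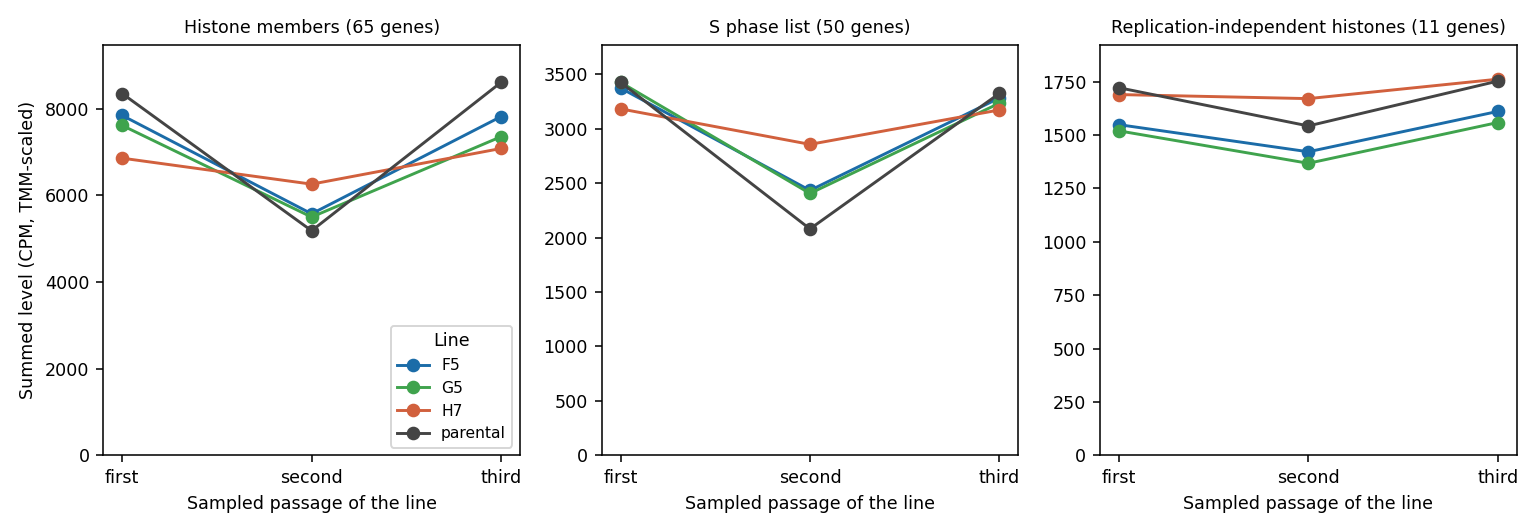
Summed level (CPM, TMM-scaled) at each sampled passage in order of each line, for the 65 members, for 50 genes of S phase and for 11 replication-independent histone genes; 1 point is 1 library. The members and the S phase genes were lowest at the second passage in all 4 lines, with the shallowest dip in H7, where the members held 89.8% of the outer mean. The replication-independent histones were also lowest at the second passage in all 4 lines, and held 88.8% to 96.8%.

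In the fit over all 4 lines, with line and sampled passage as terms (edgeR quasi-likelihood test, adjusted over all genes), 55 of the 60 tested members were lower in the second passage than in the first and the third and 0 were higher. Over all genes tested, 15.6% were lower and 16.5% were higher. The median log2 fold change of the members was -0.47, beside 0.02 for all genes. All 60 members had a negative value, from -0.67 to -0.05. In 32 members all 4 second-passage libraries lay below all 8 others, which held for 3.88% of all genes tested. In 45 members the second-passage library was the lowest of its line in all 4 lines, against 13.3% of all genes. In 11 more it was so in 3 lines, with no share of all genes given.

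**Figure D3:**
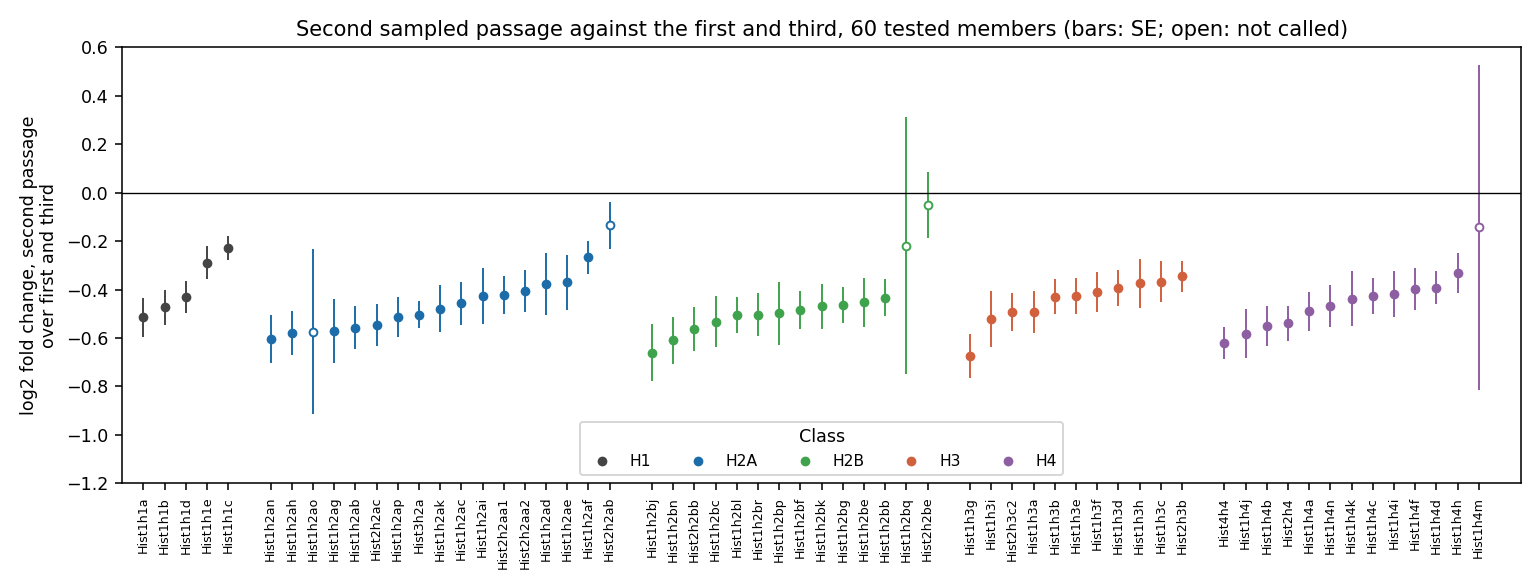
Log2 fold change of the second sampled passage over the first and the third for the 60 tested members, by class, with bars for the SE. Filled points are members called lower at an adjusted p under 0.05 and open points are not called. All points lie below 0, between -0.67 and -0.05.

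Hist4h4, a lone H4 gene on chr6:136801553-136804415 on the minus strand, had the smallest adjusted p. Its second-passage libraries stood at 226 CPM in F5, 213 in G5, 244 in H7 and 262 in the parental line, against a lowest, median and highest of 301, 372 and 459 CPM in the 8 outer libraries. The groups did not overlap. The log2 fold change was -0.62 (SE 0.07, edgeR adjusted p = 0.000331). It shares 7.07% of its 50-base stretches with other genes, over an annotated transcript of 2863 bases, of which 2445 lie after the stem-loop.

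Hist2h4, an H4 gene of chromosome 3, behaved alike, with 1.01% shared stretches over 1630 annotated bases, 1257 of them after the stem-loop. It stood at 96.5, 94.9, 114 and 87.9 CPM in the second passages of F5, G5, H7 and the parental line, against 127.2, 139.5 and 165.6 CPM as the lowest, median and highest outer library. The groups were separate, and the log2 fold change was -0.54 (SE 0.07, edgeR adjusted p = 0.000792).

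Hist1h3g, the H3 gene with the stem-loop version of its own, had the largest decrease among the members. It stood at 60.7, 57.7, 63.2 and 52.0 CPM in the second passages of F5, G5, H7 and the parental line, against 78.2, 90.1 and 110 CPM as the lowest, median and highest outer library. No second-passage library reached an outer one. Its log2 fold change was -0.67 (SE 0.09, edgeR adjusted p = 0.000833). It shares 54.1% of its stretches with other genes, mostly with Hist1h3h, which was also lower, at -0.37.

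Hist3h2a, an H2A gene of chromosome 11, stood at 27.5, 30.2, 25.9 and 39.0 CPM in the second passages of F5, G5, H7 and the parental line, against 30.7, 42.6 and 58.4 CPM as the lowest, median and highest outer library. The groups overlapped over all lines, since H7 was low and the parental line high throughout, while within each line the second passage was the lowest. The log2 fold change with line as a term was -0.50 (SE 0.06, edgeR adjusted p = 0.000379). Its annotated span overlaps Trim17 on the same strand, with which it shares 31.5% of its stretches.

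All classes took part. Of the tested genes, 5 of 5 H1, 15 of 17 H2A, 12 of 14 H2B, 11 of 11 H3 and 12 of 13 H4 genes were lower, with median log2 fold changes of -0.43, -0.48, -0.49, -0.43 and -0.44 in that order. The highest member of each class by TPM may stand for the abundant genes. Hist2h3b stood at 341, 326, 349 and 304 CPM in the second passages of F5, G5, H7 and the parental line, against 370.1, 420.1 and 469.5 CPM as the lowest, median and highest outer library. The 2 sets of libraries did not overlap, and its log2 fold change was -0.35 (SE 0.06, edgeR adjusted p = 0.00303). Hist1h4d stood at 194.5, 204.5, 230.6 and 186.0 CPM, against 237.5, 260.5 and 310.5 CPM, and its log2 fold change was -0.39 (SE 0.07, edgeR adjusted p = 0.00234). Hist1h2bg stood at 141, 129, 159 and 122 CPM, against 174, 193 and 206 CPM, and its log2 fold change was -0.46 (SE 0.07, edgeR adjusted p = 0.00173). Neither of these overlapped between second and outer libraries.

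Hist1h1d, the leading H1 gene by TPM, stood at 154.8, 151.8, 181.8 and 150.4 CPM in the second passages of F5, G5, H7 and the parental line, against 193, 217 and 234 CPM as the lowest, median and highest outer library. It did not overlap, and its log2 fold change was -0.43 (SE 0.06, edgeR adjusted p = 0.00126). Hist2h2aa1, the leading H2A gene, stood at 203.1, 220.5, 268.5 and 204.2 CPM, against 272.5, 307.2 and 328.9 CPM, and its log2 fold change was -0.42 (SE 0.08, edgeR adjusted p = 0.00352). Its H7 library at the second passage came close to the lowest outer library. Of the other 10 leading genes of the 5 classes, all were called lower, from -0.29 for Hist1h1e to -0.56 for Hist2h2bb. Of these, Hist1h4h at -0.33 lost the call without the F5 library of passage 8 (edgeR adjusted p = 0.0591).

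Members that are also made as polyadenylated messages, which cells can keep outside S phase, were in part lower as well. Hist1h2bc was lower by the test at -0.53 (SE 0.10, edgeR adjusted p = 0.00425) and Hist1h1c at -0.23 (SE 0.05, edgeR adjusted p = 0.00676). Hist1h2bc stood at 50.1, 38.9, 64.9 and 45.4 CPM in the second passages of F5, G5, H7 and the parental line, against 62.1, 71.3 and 80.7 CPM as the lowest, median and highest outer library. These overlapped through H7, where the third passage was lower than the second, at 64.35 against 64.85 CPM. Hist1h1c stood at 218, 213, 231 and 202 CPM in the second passages of F5, G5, H7 and the parental line, against 237, 257 and 266 CPM as the lowest, median and highest outer library. The ranges of Hist1h1c were close and did not overlap. Hist2h2be stood near 1 CPM in every library, at 1.789, 1.496, 1.142 and 1.618 CPM against 1.194, 1.651 and 1.953 CPM, and was not called, at -0.05 (SE 0.14).

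The members not called lower were mostly those with few reads. Besides Hist2h2be, they were Hist1h2ao at -0.57 (SE 0.34), Hist1h2bq at -0.22 (SE 0.53), Hist1h4m at -0.14 (SE 0.67) and Hist2h2ab at -0.14 (SE 0.10). Hist1h2ao averaged 3.23 TPM, Hist1h2bq 0.754 and Hist1h4m 4.98, and these 3 share 89.8% or more of their stretches with other genes. Hist2h2ab, an H2A gene, averaged 22.4 TPM, and its second passages at 4.99, 5.53, 4.57 and 5.25 CPM lay within the outer range of 4.34 to 6.71 CPM.

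The size of the dip differed between the lines in value. The median member held 71.3% of its outer mean in F5, 73.2% in G5, 90.6% in H7 and 58.8% in the parental line. Its second-passage library was the lowest of the line in 56 of 60 members in F5, 57 in G5, 47 in H7 and 59 in the parental line, beside 37.8%, 36.8%, 32.3% and 40.8% of all genes tested in the same lines. In a fit with a second-passage term for each line, chosen after the data were seen and left with 4 residual degrees of freedom, each line's second passage is 1 library and the spread comes from the pairs of outer libraries, so these calls compare single libraries. In this fit 56 members were called lower in the parental line, where 12.5% of all genes were. In G5 10 members were called lower, beside 0.374% of all genes. In F5 and in H7 0 members were called, beside 0.00% of all genes, with 55 members in F5 and 11 in H7 lower at an unadjusted p under 0.05, beside 7.91% and 2.86% of all genes.

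The difference of the dip between H7 and the mean of the other lines had a median of 0.43 over the members in the same fit, a shallower dip in H7. It rests on 1 second-passage library of each line, which all members share, so the members are not replicates of it. No member passed the adjusted threshold by edgeR, with 45 of them above 0 at an unadjusted p under 0.05, beside 4.52% of all genes, and the lowest adjusted p was 0.441. In the fit without the H7 libraries the same 55 members were called lower, and without the parental libraries 52 of them, with no share of all genes given.

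**Figure D4:**
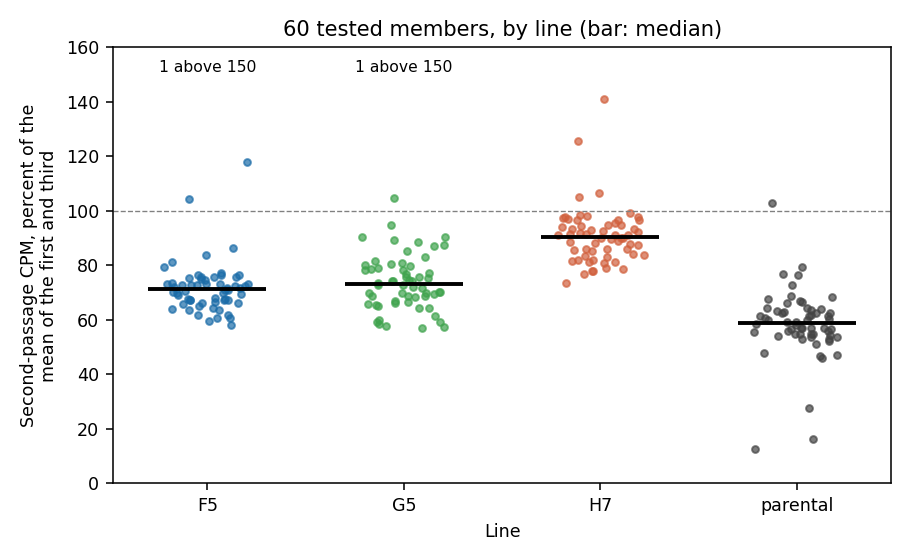
Level of each of the 60 tested members at the second sampled passage, as a percentage of the mean of the first and the third of the same line (CPM); bars are medians, and the dashed line marks 100. The medians are 71.3 in F5, 73.2 in G5, 90.6 in H7 and 58.8 in the parental line. Points above 150 are given as counts.

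Genes that make and handle histone messages were lower in part. Of 22 tested genes for histone message synthesis, processing and decay, 11 were lower in the second passage and 0 higher, with a median of -0.17. Slbp, which binds the stem-loop, stood at 40.8, 40.4, 49.2 and 40.9 CPM in the second passages of F5, G5, H7 and the parental line, against 48.6, 50.6 and 54.8 CPM as the lowest, median and highest outer library. Its log2 fold change was -0.25 (SE 0.05, edgeR adjusted p = 0.00572), with H7 within the outer range. Casp8ap2, a partner in histone message processing, was also lower at -0.26 (SE 0.06, edgeR adjusted p = 0.00596). Npat, the factor that activates histone gene transcription under cyclin E, was not called, at 0.00 (SE 0.05) and 50.4 ± 3.76 CPM in the second passages (SD, n = 4) against 50.6 ± 4.13 in the others (SD, n = 8). By the smallest adjusted p, the lower genes were Ncbp2 of the cap-binding complex at -0.34, Nfyc of NF-Y at -0.29 and Eri1, a nuclease that acts on histone message ends, at -0.30. Slbp, Casp8ap2 and Npat were named after their values were seen.

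Of 15 histone chaperones, which carry new histones to DNA, 9 were lower and 0 higher, with a median of -0.20. Asf1b stood at 15.8, 15.7, 19.3 and 14.2 CPM in the second passages of F5, G5, H7 and the parental line, against 23.8, 27.0 and 30.2 CPM as the lowest, median and highest outer library. These groups were separate, and the log2 fold change was -0.75 (SE 0.09, edgeR adjusted p = 0.000674). Chaf1b of the replication-coupled CAF-1 complex was lower at -0.53 (SE 0.07, edgeR adjusted p = 0.000812) and Nap1l1 at -0.35 (SE 0.05, edgeR adjusted p = 0.0012). Hira, Daxx and Atrx, which act in replication-independent deposition, were not called, at -0.09, -0.02 and 0.07.

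Of 11 genes listed as replication-independent histones 4 were lower, with a median of -0.04. Among them, H2afx also makes a stem-loop message and Cenpa is made mainly in G2, while H3.3 is made through the cycle. H2afx stood at 175.7, 176.5, 184.9 and 174.7 CPM in the second passages of F5, G5, H7 and the parental line, against 188.3, 234.5 and 269.0 CPM as the lowest, median and highest outer library. It did not overlap, and its log2 fold change was -0.36 (SE 0.07, edgeR adjusted p = 0.00505). The others were Cenpa, the centromeric H3, at -0.26 (SE 0.06, edgeR adjusted p = 0.00731), H2afz at -0.32 (SE 0.09, edgeR adjusted p = 0.018) and H2afy at -0.16 (SE 0.04, edgeR adjusted p = 0.0164). H2afy lost the call without the F5 library of passage 8 (edgeR adjusted p = 0.0504). H3f3a and H3f3b, the H3.3 genes, were not called, at 190 ± 37.9 and 364 ± 64.6 CPM in the second passages (SD, n = 4) against 180 ± 21.8 and 375 ± 73.1 CPM in the others (SD, n = 8).

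Genes of the cell cycle were lower as well. In the S phase list 47 of 50 genes were lower and 0 higher, with a median of -0.43, among them Prim1 of DNA primase at -0.50 (SE 0.05, edgeR adjusted p = 0.000293) and Ccne2, a cyclin of the start of S phase, at -0.73 (SE 0.08, edgeR adjusted p = 0.000453). The summed S phase level at the second passage was 73.1% of the outer mean in F5, 72.2% in G5, 89.9% in H7 and 61.6% in the parental line. In the list of G2 and mitosis 24 of 25 genes were lower and 0 higher, with a median of -0.42, and its summed level at the second passage was 75.6% of the outer mean in F5, 70.7% in G5, 92.2% in H7 and 76.4% in the parental line. Examples are Kif23 at -0.47, Ccnf at -0.46 and Ccna2 at -0.45. Of 4 tested CDK inhibitors, Cdkn1a was lower at -0.50 (SE 0.10, edgeR adjusted p = 0.0053). Of the 10 fibroblast markers 3 were higher, namely Pdgfra at 1.17, Thy1 at 0.59 and Lum at 0.80, and 2 were lower. The labels give no date, density or time since feeding for the passages, and the part of these in the dip was not tested.

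Between the third and the first sampled passage, 0 of the 60 members were called in either direction by edgeR, beside 1.12% of all genes. In addition 2 members had an unadjusted p under 0.05 and 0 were called by DESeq2, with no share of all genes given for these counts. The median log2 fold change was -0.01.

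The design of the study sets the clones against the parental line. Over all 12 libraries, with line as the only term, few members were called. For the average of the 3 clones over the parental line, 2 of the 60 members were lower and 0 higher, beside 10.5% lower and 8.55% higher of all genes tested. The median member stood at -0.12, beside -0.02 for all genes. For F5 it was 1 member lower and 0 higher, beside 7.37% lower and 6.88% higher of all genes. For G5 it was 3 lower and 0 higher, beside 6.56% and 6.54%. For H7 it was 1 lower and 0 higher, beside 9.92% and 9.64%. These comparisons share the parental libraries. Without the parental library of passage 7, 12 of 61 members were called for the mean of the clones, all lower, beside 14.1% of all genes in either direction. Likewise all lower were 5 for F5, beside 13.5%, 8 for G5, beside 12.1%, and 8 for H7, beside 18.5%. These shares count both directions, and shares of lower genes alone are not given here. The member that the filter added in this fit is Hist3h2ba, with 10 and 11 counts in the parental line against 1 to 5 in the clones. Whether it is among those called is not given here, and such a call would not be independent of the filter. Without the parental library of passage 6 the mean of the clones and H7 had 0, with no share of all genes given. With sampled passage as a further term, 8 members were lower and 1 higher for the mean of the clones, beside 17.8% and 15.6% of all genes. It was 5 lower and 5 higher for F5, beside 15.0% and 13.8%, 7 lower and 1 higher for G5, beside 13.8% and 13.1%, and 4 lower and 0 higher for H7, beside 16.7% and 16.0%. The summed member level averaged 7082 ± 1304 CPM in F5, 6825 ± 1153 in G5, 6736 ± 426 in H7 and 7384 ± 1908 in the parental line (SD, n = 3 each), and these ranges overlap.

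Hist1h2ai, an H2A gene on chr13:21716422-21716814 on the plus strand, was called in the most comparisons. It stood at 55.6, 43.5 and 59.5 CPM in F5, 49.2, 43.5 and 46.9 in G5, 70.6, 61.1 and 76.2 in H7, and 125, 57.2 and 90.1 in the parental line. The parental library of passage 7 lay within the range of the clones, and the other 2 parental libraries lay above all 9 clone libraries. The log2 fold change was -0.71 for the mean of the clones (SE 0.18, edgeR adjusted p = 0.0172), -0.78 for F5 (SE 0.23, edgeR adjusted p = 0.0408) and -0.96 for G5 (SE 0.23, edgeR adjusted p = 0.0179). The call for the mean was lost without the parental library of passage 6 (edgeR adjusted p = 0.0943), that for G5 without any 1 of its libraries, and that for F5 without any 1 library other than the parental one of passage 7 (edgeR adjusted p up to 0.132). It shares 90.1% of its stretches with other genes, 84.0% with Hist1h2ad. Hist1h2ad itself was not called for the mean of the clones, at -0.30.

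Hist3h2a stood at 41.6, 27.5 and 43.0 CPM in F5, 42.2, 30.2 and 45.6 in G5, 33.0, 25.9 and 30.7 in H7, and 55.8, 39.0 and 58.4 in the parental line. H7 lay wholly below the parental line, and F5 and G5 overlapped it only through its second passage. It was lower for the mean of the clones at -0.53 (SE 0.17, edgeR adjusted p = 0.0452) and for H7 at -0.77 (SE 0.21, edgeR adjusted p = 0.0247). The call for the mean was lost in 10 of the 12 fits that left out 1 library (edgeR adjusted p up to 0.174), and that for H7 without passages 8 or 9 of H7 or passages 6 or 8 of the parental line. All tested genes of its chromosome had a median of 0.05 in H7.

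In G5, Hist1h2bp and Hist1h4i were lower as well. Hist1h2bp, an H2B gene on chr13:21787461-21789213 on the plus strand, stood at 20.6, 17.1 and 25.2 CPM in F5, 18.6, 9.34 and 14.1 in G5, 31.6, 30.0 and 29.8 in H7, and 36.5, 21.2 and 39.1 in the parental line. G5 lay below every H7 and parental library. The log2 fold change was -1.19 against the parental line (SE 0.26, edgeR adjusted p = 0.0129) and -1.11 against H7 (SE 0.26, edgeR adjusted p = 0.0128). It shares 44.1% of its stretches with other genes, 34.4% with Hist1h2bq, and the sum of Hist1h2bp, Hist1h2bq and Hist1h2br was 78.5 ± 21.7 CPM in G5, 85.9 ± 3.46 in H7 and 87.5 ± 25.3 in the parental line (SD, n = 3 each), which overlap.

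Hist1h4i, an H4 gene on chr13:22040636-22041362 on the minus strand, stood at 70.2, 51.5 and 67.2 CPM in F5, 61.4, 42.2 and 50.6 in G5, 99.8, 92.6 and 98.8 in H7, and 93.9, 58.6 and 108 in the parental line. F5 and G5 lay below every H7 library, while G5 overlapped the parental line at its passage 7. In G5 the log2 fold change was -0.75 against the parental line (SE 0.21, edgeR adjusted p = 0.0352) and -0.92 against H7 (SE 0.21, edgeR adjusted p = 0.0105). The call against the parental line was lost in 8 of the 12 fits that left out 1 library (edgeR adjusted p up to 0.114), and that against H7 in 0. It shares 28.9% of its stretches with other genes, over an annotated transcript of 727 bases, of which 330 lie after the stem-loop.

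Between clones, 0 members differed between F5 and G5 by edgeR, beside 0.258% of all genes, with 0 at an unadjusted p under 0.05 and 0 by DESeq2. Between F5 and H7 1 member was higher and 0 lower, beside 9.45% and 8.49% of all genes. It was Hist1h4f, an H4 gene on chr13:23551258-23551648 on the minus strand, at 107, 70.5 and 95.3 CPM in F5, 90.6, 69.5 and 81.4 in G5, 58.5, 54.5 and 57.3 in H7, and 75.9, 50.4 and 87.2 in the parental line. All F5 and G5 libraries lay above all H7 libraries, and the log2 fold change of F5 against H7 was 0.68 (SE 0.19, edgeR adjusted p = 0.0323). The call was lost without passages 7 or 9 of F5 and without any 1 library of H7 (edgeR adjusted p up to 0.119). Between G5 and H7 2 members were lower, Hist1h2bp and Hist1h4i, and 0 higher, beside 8.51% lower and 8.88% higher of all genes.

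The counts between lines changed when the second passages were left out. Without the second-passage libraries of all 4 lines, a choice made after seeing the data that leaves 2 libraries a line, 24 of 61 members were lower and 0 higher for the mean of the clones, beside 7.84% lower and 6.98% higher of all genes. The median member was then -0.22. For F5 it was 11 lower and 1 higher, beside 6.43% and 5.92% of all genes, and the higher one was Hist1h2ak, an H2A gene, at 0.41. For G5 it was 14 lower and 0 higher, beside 5.60% and 5.44%, and for H7 31 lower and 0 higher, beside 8.87% and 9.90%. In these outer passages the summed level of all members was 92.4% of the parental level in F5, 88.3% in G5 and 82.2% in H7. Single values of this fit for the mean of the clones were -0.87 for Hist1h2ai (SE 0.11, edgeR adjusted p = 0.00208), -0.55 for Hist3h2a (SE 0.06, edgeR adjusted p = 0.00123) and -0.51 for Hist1h2bl, an H2B gene (SE 0.06, edgeR adjusted p = 0.00162). Hist3h2ba, an H2B gene that the filter left out over all 12 libraries and kept here through its parental counts, stood at 3, 4 and 4 counts in F5, 4, 5 and 2 in G5, 1, 1 and 2 in H7, and 10, 3 and 11 in the parental line. Whether it is among the lower members of this fit is not given here, and such a call would not be independent of the filter. Between clones, F5 against G5 then gave 0 members in either direction, beside 0.116% higher and 0.0477% lower of all genes. F5 against H7 gave 13 members higher and 1 lower, beside 9.91% and 10.8% of all genes, and G5 against H7 12 higher and 3 lower, beside 9.25% and 10.0%. The lower one in F5 was Hist1h4i, and those in G5 were Hist1h4i, Hist1h2bp and Hist1h2ai.

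The summed level of the S phase list in the outer passages was 98.6% of the parental level in F5, 98.7% in G5 and 94.1% in H7. For the mean of the clones over all 12 libraries, 0 of its 50 genes were called in either direction, with 2 at an unadjusted p under 0.05. Of the 11 replication-independent histones 3 were lower for the mean of the clones, H1fx at -0.83 (SE 0.13, edgeR adjusted p = 0.00124), H2afy2 at -0.59 (SE 0.08, edgeR adjusted p = 0.000562) and H3f3a at -0.37 (SE 0.06, edgeR adjusted p = 0.00124). H1fx, a linker variant, averaged 14.2 ± 1.70 CPM in F5, 9.06 ± 1.04 in G5, 2.04 ± 0.475 in H7 and 11.4 ± 0.887 in the parental line (SD, n = 3 each). H7 lay below every other library, and F5 overlapped the parental line. Of the genes that make and handle histone messages 2 were higher, Lsm10 of the U7 particle at 0.35 (SE 0.06, edgeR adjusted p = 0.00388) and Cpsf3, the nuclease that cuts histone messages, at 0.24 (SE 0.05, edgeR adjusted p = 0.0119). Cpsf3 lost the call without the parental library of passage 8 (edgeR adjusted p = 0.0602). Lsm10 averaged 17.37 CPM in F5, 16.65 in G5, 12.69 in H7 and 12.11 in the parental line. Its H7 libraries lay within the parental range.

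Of the 4 tested CDK inhibitors 1 was higher and 1 lower for the mean of the clones. Cdkn1a, the CDK inhibitor p21, averaged 138 ± 17.2 CPM in F5, 114 ± 19.3 in G5, 134 ± 20.1 in H7 and 45.0 ± 16.5 in the parental line (SD, n = 3 each). It was higher for the mean of the clones at 1.51 (SE 0.22, edgeR adjusted p = 0.000968). Cdkn2c was lower at -0.30 (SE 0.08, edgeR adjusted p = 0.03), and lost the call in 5 of the 12 fits that left out 1 library (edgeR adjusted p up to 0.128) and without the second passages. Of the 25 genes of G2 and mitosis, Ccnb2, a mitotic cyclin, was the only one called, at 11.2 ± 1.75 CPM in F5, 12.3 ± 1.88 in G5, 0.209 ± 0.166 in H7 and 12.1 ± 1.69 in the parental line (SD, n = 3 each). Its difference stands in H7. Of the 10 fibroblast markers 4 were lower for the mean of the clones, Lum at -2.55, Col3a1 at -1.14, Col1a1 at -0.46 and Pdgfrb at -0.35, and 0 were higher. None of these was called in H7 alone, at -0.22, -0.15, -0.20 and -0.17 in that order. Lum stood at -3.71 in F5 and -3.71 in G5, and Col3a1 at -1.50 and -1.78. Col1a1 lost the call for the mean without the parental library of passage 7 (edgeR adjusted p = 0.0581), and Pdgfrb lost it in 9 of the 12 fits that left out 1 library (edgeR adjusted p up to 0.257). Ptprc, an immune marker, was lower at -2.28, with a mean of 0.434 CPM or less in every line, and lost the call without the parental library of passage 7 (edgeR adjusted p = 0.0712). The part of the genes of these lists in the histone levels was not tested.

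Along the Hist1 cluster, differences between clones were not even. The tested Hist1 genes fall into 22 on chr13:21715763-22043676 and 27 on chr13:23531050-23764406, with a gap of 1487373 bases between them. Among members of at least 10 TPM, the changes against the parental line ran from -1.19 to 0.48 over clones in the first stretch and from -0.37 to 0.35 in the second. The median spread between the highest and lowest clone was 0.40 for the 19 such genes of the first stretch and 0.15 for the 27 of the second, on the log2 scale. The median share of 50-base stretches found in other genes was 82.8% in the first and 43.2% in the second, and the part of shared reads in this pattern was not tested. The division into stretches was made after the values were seen, and no test was made of it.

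**Figure D5:**
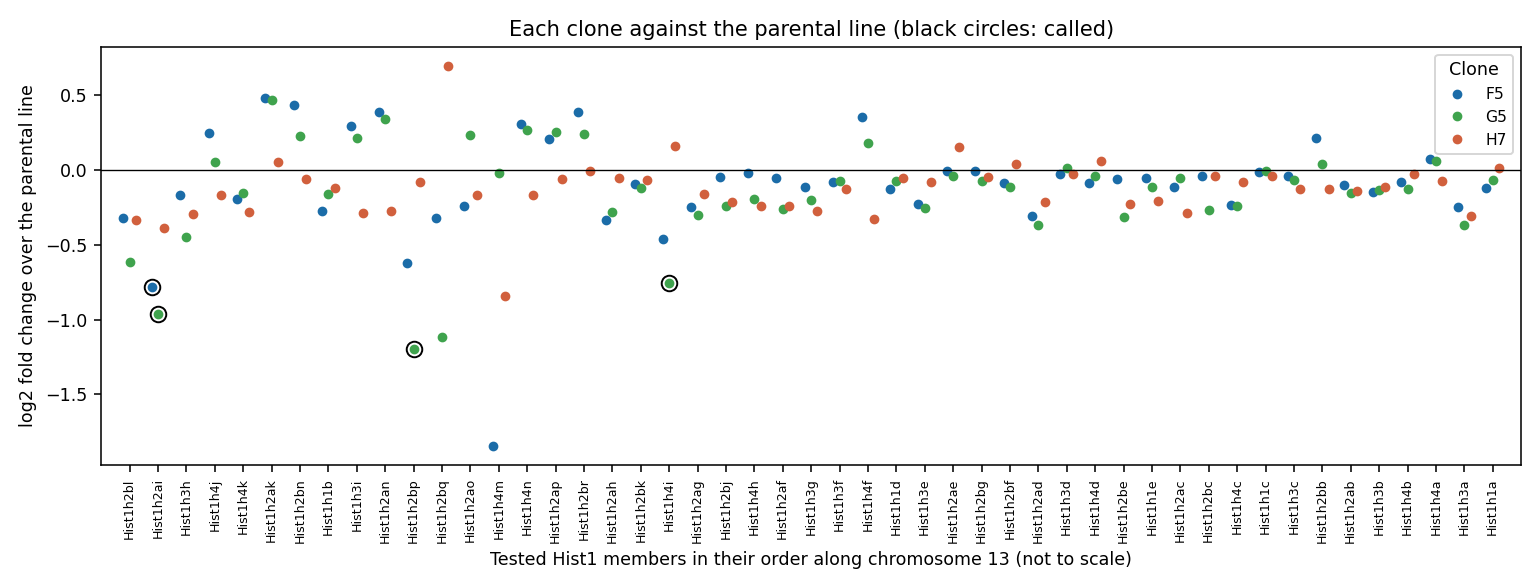
Log2 fold change of F5, G5 and H7 over the parental line for the 49 tested Hist1 members in their order along chromosome 13, not to scale. Black circles mark members called at an adjusted p under 0.05. The points spread most among the first 22 genes, up to Hist1h2bj, which include Hist1h2bq, Hist1h2ao and Hist1h4m with few reads.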

How the data were processed

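Ribosome-depleted stranded total RNA of 12 libraries was sequenced from both ends, per the labels' protocols. The authors deposited estimated counts per gene, not normalised, and a table of TPM for the same 48795 genes, whose columns each sum to 1000000. The build was GRCm38, per the submitters' processing notes. The aligner, the counter and any use of strand were not given in the sources used here. Deposited estimated counts were rounded to whole numbers. Symbols, coordinates and transcripts came from GENCODE M21, and promoters from RefSeq on GRCm38. Library totals lay between 22088695 and 31329735, and no pair of libraries was identical.

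Genes were tested with edgeR's quasi-likelihood method after TMM scaling and filterByExpr on the 4 lines, which kept 14704 genes, with Benjamini-Hochberg adjustment over all of them and a threshold of 0.05. Line was the only term between lines (8 residual degrees of freedom), and line and sampled passage were the terms between passages (6). The SE is the log2 fold change divided by the square root of F, and the biological coefficient of variation was 15.5%. Alternatives were RLE factors, no filter, at least 1 CPM in 3 libraries, DESeq2, limma on log2(TPM + 1) and log2(TPM + 0.1) for genes of at least 0.5 TPM, leaving out each library, and the replicate number as a block. On simulated counts for the clone mean, 36 of 66 genes changed 1.5-fold, 59 of 65 changed 2-fold and 64 of 64 changed 4-fold were recovered, with 5 false calls among 14514 genes. For the second passage it was 42 of 66, 59 of 66 and 65 of 65, with 8 false calls among 14516 genes. Apart from the change put in, simulated libraries varied independently around a common mean per gene. The simulation for the clone mean held no dip at the second passage, so these rates may not hold for the real libraries.

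The members and gene lists were chosen with earlier results of these data known. The genes named were Aebp1, the 3 members of highest mean TPM in each class, the 4 called members of smallest adjusted p in each comparison, the 3 called members that differed most between clones, polyadenylated and germ-cell members, and the genes of smallest adjusted p of each other list. Others were named after their values were seen. Sums over members were described and not tested. Python 3.11.15 was used for tables and R 4.3.3 for tests, with DESeq2 1.42.0, limma 3.58.1 and edgeR 4.0.16.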

Additional observations from a re-analysis of the deposited data

Results flagged for a closer look

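Of the 60 tested members 3 differed between clones by the test of that difference itself. Of all genes, 9.45% were higher and 8.49% lower in F5 against H7, and 8.88% and 8.51% in G5 against H7. Hist1h4f differed between F5 and H7, at a log2 fold change of 0.68, and lost the call without passages 7 or 9 of F5 or any 1 library of H7. Hist1h2bp differed between G5 and H7, at -1.11, while its sum with its near copies overlapped between these clones. Hist1h4i differed between G5 and H7, at -0.92.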

How the results depend on the processing

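The same 55 members were lower in the second passage under RLE factors, no filter, the CPM filter, DESeq2, both limma fits and without the H7 libraries, 52 of them without the parental libraries, and 48 to 55 of them with a library left out. The comparison of the third with the first passage gave 0 members, other than 1 lower member without the parental libraries. Shares of all genes under these alternatives are not given here.

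The counts between lines depended on single libraries. With 1 library left out they ran from 0 to 12 for the mean of the clones, 0 to 5 for F5, 1 to 8 for G5, 0 to 8 for H7, 0 for F5 against G5, 0 to 4 for F5 against H7 and 2 to 5 for G5 against H7. Without the parental library of passage 7 they were 12 for the mean, 5 for F5, 8 for G5, 8 for H7, 4 for F5 against H7 and 5 for G5 against H7, against 2, 1, 3, 1, 1 and 2 with all libraries. Without all second passages they were 24, 12, 14, 31, 14 and 15 in the same order. Without a filter they were 4 for the mean, 2 for H7 and 2 for F5 against H7. DESeq2 gave 2 for F5 against H7. Both limma fits gave 0 for F5 and 3 for H7. Shares of all genes are given above for the fit without all second passages. They are also given there for the clones against the parental line without its passage 7. The other counts here have no share beside them and describe only how the calls moved.

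Replicate numbers are passage numbers. Residuals of libraries with the same number correlated at -0.53 to 0.50, with 9 of 15 pairs over 0.1. By place in the order of passages they correlated at 0.04 to 0.50, with 16 of 18 pairs over 0.1. The median was 0.34 for the same place, beside -0.11 for different places and 0.15 for the same passage number. Place thus paired the libraries more closely, though not every pair passed 0.1. The adjusted p-values of named members between lines over all 12 libraries come from the fit without place, so the shared dip is part of their spread. With the passage number as a replicate block the counts were 0 for the mean, F5, G5, H7 and F5 against H7 and 2 for G5 against H7, with no share of all genes given. With the place as a block they were 9 for the mean (1 higher and 8 lower), 10 for F5 (5 and 5), 8 for G5 (1 and 7), 4 for H7 (all lower), 11 for F5 against H7 (9 and 2) and 10 for G5 against H7 (6 and 4). For the last 2, 15.6% and 14.6% of all genes were then higher and 15.7% and 15.0% lower. A passage block beside line and place could not be fitted. The cause of these moves was not tested.

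No value of a named gene reversed. Over all alternatives of the 64 named genes and comparisons, 85 of the alternative values lost the call and 1215 kept it. Hist3h2a for the mean of the clones lost it under 13 and Hist1h2ai for F5 under 14, while no loss was seen for Hist4h4, Hist2h4, Hist3h2a or Hist1h3g at the second passage. The planned sum without members above 10% of the family's TPM was not run, since no member reached that share. Depth limits the members below 10 TPM.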
